A study of Mus musculus with 4 samples.

Results

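This account covers 45 mouse genes that encode proteins of the spliceosome core, chosen by name, among the 21900 protein-coding genes of the RefSeq table for GRCm38.p6, the assembly behind mm10. Their DHX9 binding was read as the peaks whose midpoint lay inside the gene body, on either strand. There were 348 such peaks among 59563, or 0.58% of the deposited list. The genes fall into U1 (4 genes), U2 (11), branch point and 3′ splice site recognition (3), the Sm core (7), the U4/U6.U5 tri-snRNP with the factors that join it (13), the minor U11 snRNP (3) and the Prp19 complex with an associated helicase (4).

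The peaks came from FLASH, a form of CLIP-seq in which RNA is fixed to protein with ultraviolet light, pulled down with an antibody and sequenced. The cells were WT26, a male mouse embryonic stem (ES) cell line of C57BL/6x129sV background that grows without feeder cells in medium with serum and leukemia inhibitory factor, carrying no stated mutation or further treatment. There were 2 pulldowns with a rabbit antibody to DHX9, an RNA helicase that opens RNA duplexes, and 2 with rabbit IgG as control, each pair named as biological replicates A and B. A single peak list was analysed, with no value per replicate, per control or per peak, and whether the IgG pulldowns entered the peak calling is not stated. Therefore no error between pulldowns can be given for any count below and no test over samples could be made. Sequencing depth is unknown. Peaks lay over 7 of 8 ES cell marker genes (180 peaks in all, with none in Dppa5a) and over 0 of 6 fibroblast marker genes. Of all protein-coding genes 22.8% held a peak, so that none among 6 genes says little about other cells.

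The spliceosome removes introns from pre-mRNA. U1 snRNP pairs with the 5′ splice site, SF1 and the U2AF proteins mark the branch point and the 3′ splice site until U2 snRNP takes the branch point over, and the tri-snRNP then brings in U4, U6 and U5. The Prp19 complex joins as the catalytic centre forms, and a ring of Sm proteins sits on the U1, U2, U4 and U5 snRNAs. The genes described here encode the proteins, and the peaks lie on their transcripts, not on the snRNAs.

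The transcripts of most spliceosome core genes carried DHX9 peaks. At least 1 peak was found in 33 of the 45 genes, or 73.3% (95% Wilson interval 59.0 to 84.0%), against 22.8% of all protein-coding genes. Longer genes have more room for peaks, so each gene was also set against the other protein-coding genes in its own one of 50 length bins. The mean share in those bins was 23.7%. At least 3 peaks were found in 23 of the 45 genes, against 14.8% of all protein-coding genes, and at least 10 in 13, against 7.27%. The list holds no measure of RNA abundance, so a gene with much RNA and a gene with much DHX9 per RNA cannot be told apart. Intervals on shares cover counting error over genes in 1 list only.

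**Figure D1:**
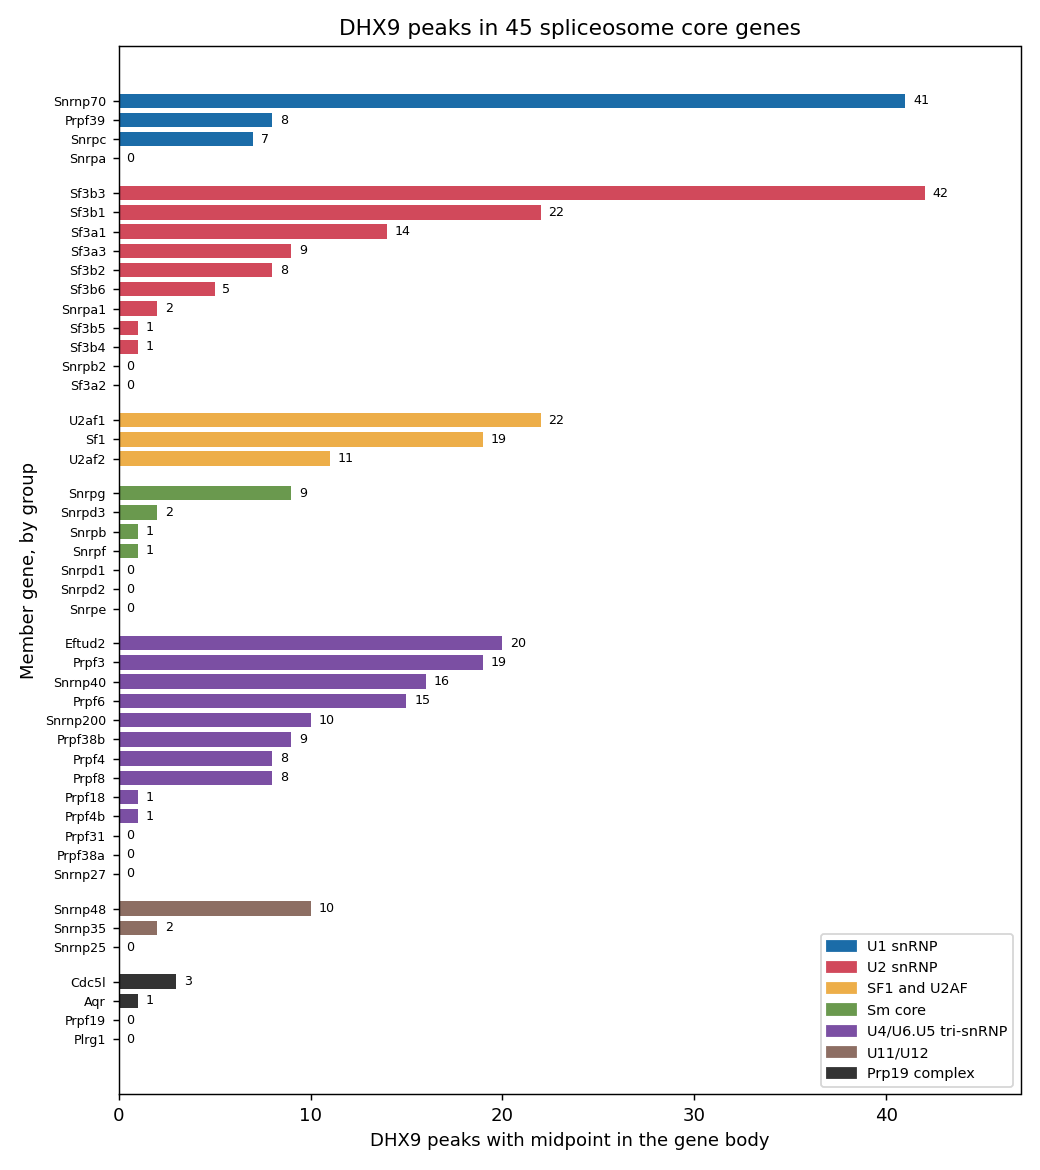
Number of DHX9 peaks (horizontal axis) in the body of each of the 45 spliceosome core genes (vertical axis), grouped and coloured by complex, with the count written beside each bar. Sf3b3 and Snrnp70 lead with 42 and 41 peaks, and 12 genes hold none.

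The spliceosome genes without a peak were among the shorter ones. The 12 genes without one were Snrpa, Snrpb2, Sf3a2, Snrpd1, Snrpd2, Snrpe, Prpf31, Prpf38a, Snrnp27, Snrnp25, Prpf19 and Plrg1, and they ranged from 3.29 kb (Snrpd2) to 16.8 kb (Plrg1). All 21 spliceosome genes longer than Plrg1 had a peak, whereas 32.7% of the 7690 other protein-coding genes between that length and that of Aqr, the longest at 74.2 kb, had one. Of the 24 genes up to the length of Plrg1, 12 had a peak, against 12.6% of 10414 other genes in that length range. Those other genes were shorter, with a median of 5.77 kb against 9.29 kb. In the length bins of the 24 genes the mean share was 17.8%, and in those of the 21 longer genes 30.4%. Because Plrg1 was picked as the border for having no peak, these shares are given as a description. Over the 45 genes, length and number of peaks had a Spearman correlation of 0.58, against 0.27 over the 21855 other protein-coding genes. These values are not like for like. The other genes include longer ones, and only 22.7% of them held a peak, so that most are tied at no peak. All these points come from the same list.

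**Figure D2:**
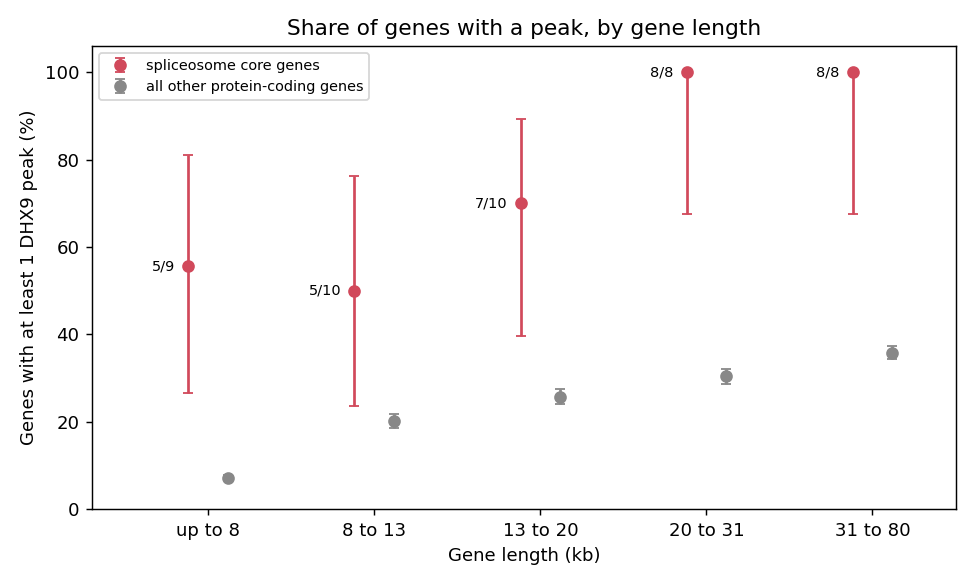
Percentage of genes with at least 1 DHX9 peak (vertical axis) in 5 classes of gene length in kb (horizontal axis), for spliceosome core genes (red, with the counts) and all other protein-coding genes (grey). Bars are 95% Wilson intervals over genes. The spliceosome genes run from 5 of 9 in the shortest class to 8 of 8 in each of the 2 longest, and the other genes from 7.18 to 35.8%.

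A few genes held most of the peaks. The 13 genes with at least 10 peaks held 261 of the 348, or 75% of them, and the 3 highest held 105. Another 10 genes held only 1 or 2. The complexes differed in density. SF1 and U2AF genes had 1.14 peaks per kb of gene body, U1 genes 0.83, U2 genes 0.56, U11 genes 0.33, tri-snRNP genes 0.32, Sm genes 0.22 and Prp19 complex genes 0.027. All protein-coding genes together had 0.054 per kb, but these include genes longer than any spliceosome gene. Within the length range of the spliceosome genes, other protein-coding genes longer than Plrg1 had 0.110 per kb. Those up to its length had 0.104. In 4 of the groups the value rested largely on 1 gene. Without Snrnp70 the U1 genes had 0.31 per kb, without Snrpg the other 6 Sm genes had 0.077, without Snrnp48 the U11 genes had 0.14, and without Cdc5l the Prp19 complex genes had 0.0095.

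**Figure D3:**
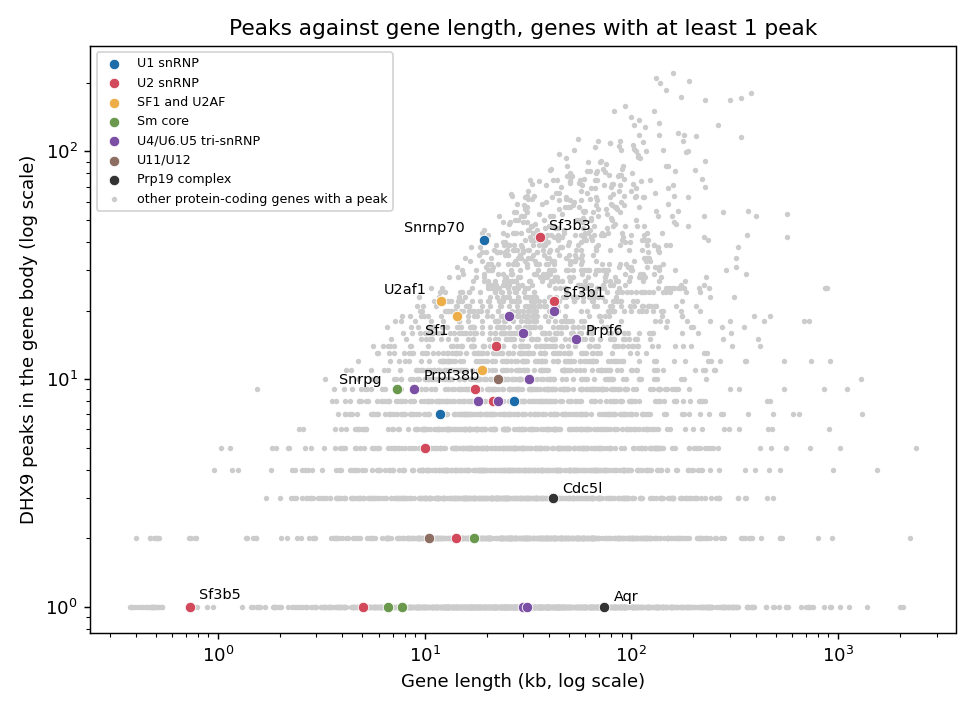
Number of DHX9 peaks (vertical axis, log scale) against gene length in kb (horizontal axis, log scale) for the 33 spliceosome core genes with a peak, coloured by complex, over all other protein-coding genes with a peak in grey. Snrnp70, U2af1 and Sf1 lie high in the cloud for their lengths, and Aqr and Cdc5l lie low for theirs.

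Among the U1 genes, 41 of the 56 peaks were in Snrnp70, which encodes the U1-70K protein that binds U1 snRNA and contacts regulators of splice site choice. Snrnp70 (chromosome 7, 45376454 to 45395742, minus strand) held 41 peaks in 19.3 kb, or 2.13 per kb. This was the highest density of the 45 genes and rank 44 among the 2544 protein-coding genes with at least 5 peaks. The other 436 genes of its length bin held a mean of 2.11 peaks, and 3 of them held as many or more. Peaks covered 43.7% of the gene body. After 3 peaks in its first 3 kb, 38 followed each other in 1 run from 3.65 to 19.2 kb after the gene start, with no gap over 1 kb (a run is a row of peaks with gaps of at most 1000 bases). Snrpc, whose product steadies the pairing of U1 with the 5′ splice site, held 7 peaks in 11.9 kb. Prpf39, named after a yeast U1 component, held 8 in 27.1 kb, of which 7 lay in a run of about 3 kb from 12.6 to 15.7 kb. Snrpa, the gene of another protein bound to U1 snRNA, held none in 9.27 kb. Thus 3 of the 4 U1 genes held a peak, against 25.3% in their length bins.

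The 3 genes for branch point and 3′ splice site recognition all held peaks, 52 in 45.5 kb, and 25.1% of other genes in their length bins held any. U2af1, whose product reads the AG at the end of the intron, held 22 peaks in 12.1 kb (chromosome 17, 31647081 to 31659148, minus strand), or 1.82 per kb. Its peaks formed a single run from 0.43 to 9.99 kb and covered 53.4% of the gene body, the highest coverage of the 45 genes. Sf1, the branch point binding protein, held 19 in 14.4 kb (chromosome 19, 6363673 to 6378038, plus strand), again in 1 run, from 2.38 to 12.1 kb, with 31.0% of the gene body covered. In their length bins, 5 of 435 and 10 of 434 other genes held as many peaks or more. U2af2, the subunit that binds the polypyrimidine tract, had 11 in 19.1 kb (chromosome 7, 5060885 to 5079945) and 8.26% covered, with 5 of them between 1.80 and 3.03 kb.

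RefSeq promoter windows of GRCm38.p6, reaching from 250 bases before to 50 bases after an annotated start, were matched for 37 of the 45 genes, in 42 windows. A peak overlapped 1 of them, a window of U2af1. That peak began 40 bases after 1 start of U2af1 and 50 bases after the other. The window is shown because it is the only start window under a peak, with the 10 bases under the peak in capitals (chr17:31658705-31659004, minus strand, 5′ to 3′).
U2af1: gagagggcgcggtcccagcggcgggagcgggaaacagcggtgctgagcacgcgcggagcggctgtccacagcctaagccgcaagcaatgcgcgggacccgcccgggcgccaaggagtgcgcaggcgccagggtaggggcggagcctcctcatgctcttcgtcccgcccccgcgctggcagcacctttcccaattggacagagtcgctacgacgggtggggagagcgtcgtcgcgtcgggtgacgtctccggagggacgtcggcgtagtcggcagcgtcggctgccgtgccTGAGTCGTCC
Among the other genes with a start in the promoter table, the closest were Prpf38b, with its first peak 144 bases after the start, Sf3b3 with 217 and Prpf6 with 413. Sf3b5, which was not matched there, had its peak 139 bases from the gene start, on the strand taken from that peak. The next distances were measured from the edge of the gene body, which for U2af1 lies 0.43 kb before its first peak. In the 22 genes with at least 5 peaks, the first peak began a median of 2.60 kb into the gene body. The range was from 0.14 kb in Prpf38b to 12.9 kb in Snrnp48, and 6 had a peak within the first 1 kb.

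Among the U2 genes, 9 of 11 held a peak, against 21.8% in their length bins. All 6 SF3b genes did, against 22.9% in theirs. Sf3b3, which encodes a scaffold subunit of SF3b, held the most peaks of the 45 genes, 42 in 36.3 kb (chromosome 8, 110810491 to 110846806, minus strand), or 1.16 per kb. In its length bin 8 of 437 other genes held as many or more. Its peaks fell into 6 runs, of which the largest held 22 peaks between 8.09 and 18.7 kb, and the next 11 lay between 25.9 and 29.2 kb. The first 2 peaks lie just before the annotated start of the neighbouring gene Cog4, on the opposite strand. Part of their sequence can therefore be read from the Cog4 promoter window. It is shown as an example of genomic sequence under DHX9 peaks, with the 237 bases under the 2 peaks in capitals. It is written on the plus strand (chr8:110846350-110846649), and the Sf3b3 transcript, read 5′ to 3′, is its reverse complement. Of the bases in capitals 55.3% were G or C.
Sf3b3 peaks in the Cog4 window: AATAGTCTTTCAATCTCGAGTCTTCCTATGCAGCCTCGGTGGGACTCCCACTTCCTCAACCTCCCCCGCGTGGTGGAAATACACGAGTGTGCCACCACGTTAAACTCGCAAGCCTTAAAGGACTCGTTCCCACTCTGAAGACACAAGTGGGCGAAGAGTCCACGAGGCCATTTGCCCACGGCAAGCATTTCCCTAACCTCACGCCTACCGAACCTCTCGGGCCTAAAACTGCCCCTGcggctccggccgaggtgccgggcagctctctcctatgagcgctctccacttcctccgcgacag

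Sf3b1, the SF3b subunit that clasps the branch point helix, held 22 peaks in 42.3 kb (chromosome 1, 54985169 to 55027501, minus strand), at 0.52 per kb. They lay mainly in 2 stretches, 15.6 to 19.3 kb and 33.4 to 37.7 kb from the start. Sf3b2 held 8, Sf3b6, whose product lies near the branch point, held 5, and the short genes Sf3b4 and Sf3b5 held 1 each. Sf3b5 is the shortest of the 45 genes at 0.73 kb, so that its single peak came to 1.36 per kb, and 8.70% of the other genes in its length bin held a peak. Of the SF3a genes, Sf3a1 held 14 in 22.2 kb (chromosome 11, 4160354 to 4182541, plus strand), 11 of them between 5.32 and 10.4 kb. Sf3a3 held 9, with 7 near its end between 14.1 and 17.5 kb of 17.6 kb, and Sf3a2 held none. In the length bins of the 3 SF3a genes 20.5% of other genes held a peak. Snrpa1 and Snrpb2 encode partner proteins that bind U2 snRNA, and held 2 peaks and none. Other genes of their length bins held a mean of 1.77 and 0.81 peaks.

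The Sm genes held few peaks. There were 13 in the 7 genes, and 9 of these were in Snrpg (chromosome 6, 86371540 to 86378902, plus strand), in a single run from 0.53 to 4.07 kb of 7.36 kb that covered 32.1% of the gene. In its length bin 12 of 437 other genes held as many or more. Snrpd3 held 2, Snrpb and Snrpf 1 each, and Snrpd1, Snrpd2 and Snrpe none. These are short genes, with a median of 7.36 kb, and in their length bins 14.7% of other genes had a peak, against 4 of 7 here.

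**Figure D4:**
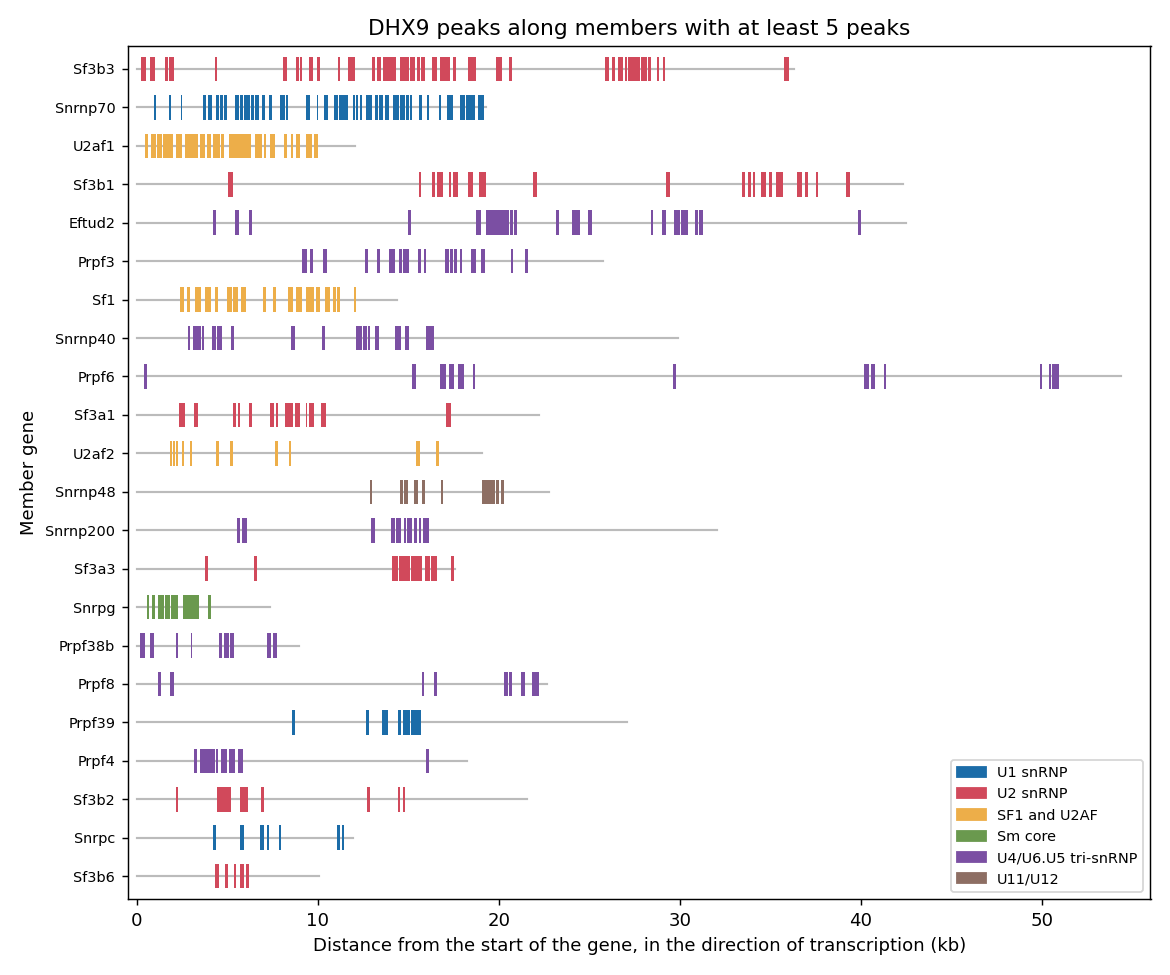
Position of each DHX9 peak (coloured block, drawn to scale) along the 22 spliceosome core genes with at least 5 peaks, in kb from the gene start in the direction of transcription, with the gene body as a grey line. Snrnp70, U2af1 and Sf1 carry peaks along most of their length, while Prpf4, Prpf39, Sf3a3 and Snrnp200 have most of their peaks in 1 cluster.

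The tri-snRNP genes held peaks in 10 of 13 cases, against 28.6% in their length bins. Eftud2, the GTPase of U5 snRNP, held 20 in 42.5 kb (chromosome 11, 102838472 to 102880984), of which 6 were packed between 18.7 and 21.0 kb. Prpf3, a U4/U6 protein, held 19 in 25.8 kb (chromosome 3, 95830124 to 95855885, minus strand), none of them in its first 9.10 kb. Snrnp40, a WD-repeat protein of U5, held 16 in 29.9 kb (chromosome 4, 130360132 to 130390033), all within its first 16.4 kb. Prpf6, which bridges U5 with U4/U6, held 15 in 54.3 kb (chromosome 2, 181601319 to 181655661, plus strand) in 6 separate runs. Snrnp200, the helicase that unwinds U4 from U6, held 10 in 32.1 kb (chromosome 2, 127208386 to 127240453, plus strand), 8 of them between 12.9 and 16.1 kb.

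The remaining tri-snRNP genes ranged from 9 peaks to none. Prpf38b held 9 in 8.93 kb, or 1.01 per kb. Prpf4, another U4/U6 protein, held 8, of which 7 lay between 3.15 and 5.86 kb. Prpf8, the protein that surrounds the catalytic centre, also held 8, with 4 of them between 20.3 and 22.2 kb of its 22.7 kb. A single peak lay in Prpf18, a factor of the later splicing step, in 30.1 kb, and in the kinase gene Prpf4b in 31.2 kb. In their length bins 32.8% and 35.8% of other genes held at least as many. Prpf31, Prpf38a and Snrnp27 held none.

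The Prp19 complex genes had the fewest peaks per kb of the 7 groups, although 2 of 4 held a peak, against 30.6% in their length bins. They held 4 peaks in 147 kb, 3 in Cdc5l and 1 in the intron-binding helicase gene Aqr. Prpf19, the ubiquitin ligase that gives the complex its name, and Plrg1 had none. Other genes of their length bins held a mean of 3.53 peaks per gene, and the 4 genes together held 0.28 times as many as such means add up to. The 3 peaks of Cdc5l lay together between 27.0 and 28.2 kb of 41.8 kb. Among the U11 genes, Snrnp48 held 10 in 22.8 kb (chromosome 13, 38204914 to 38227663, plus strand), all after its first 12.9 kb. Snrnp35 held 2, both inside a long noncoding RNA gene, Gm52789, that overlaps it, and Snrnp25 held none. Thus 2 of the 3 U11 genes held a peak, against 18.0% in their length bins. Relative to the mean of their length bins, the other groups held 9.51 times (SF1 and U2AF), 6.30 (U1), 5.07 (U2), 2.82 (U11), 2.74 (tri-snRNP) and 2.40 times (Sm) as many peaks. The U1, U11 and Sm ratios rested largely on 1 gene each, Snrnp70 (41 of 56 peaks), Snrnp48 (10 of 12) and Snrpg (9 of 13). The ratios were not computed without those genes.

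Every peak in these genes was on the strand of the gene, wherever that strand was known. The promoter table gives the strand of 37 genes, and the 297 peaks in 26 of these were all sense. For a share of antisense peaks, 0 of 297 allows up to 1.01%, by the rule that takes 3 counts as the upper limit of 0. That rule treats peaks as independent, although many share 1 transcript. In 1951 other protein-coding genes with a peak and no overlapping gene, 21084 peaks were sense and 187 (0.88%) antisense. This share lies below the limit, so the 2 sets cannot be told apart. In the 7 other genes with peaks the strand was taken from the peaks, and all 51 were on 1 strand per gene. These 7 genes were Sf3b4, Sf3b5, U2af2, Snrpb, Prpf18, Snrnp40 and Eftud2. Of the 348 peaks, 344 lay in no other gene. Outside the gene bodies, within 5 kb, 4 peaks on the strand of the gene lay after its end, 2 behind Prpf3 and 1 each behind Snrnp70 and Snrpb, and none before its start. A further 14 were on the opposite strand, and 12 of these lay inside a neighbouring gene, such as the 6 in Fkbp3 beyond the end of Prpf39.

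Averaged over genes, the middle part of the gene held the largest share of peaks, although in many genes another part held the most. In the 22 spliceosome genes with at least 5 peaks, 5 equal parts of the gene, in the direction of transcription, carried on average 14.7, 22.0, 30.2, 16.8 and 16.3% of its peaks. In 1288 other protein-coding genes with at least 5 peaks, a known strand and a length in the same range, the means were 22.4, 25.0, 21.0, 18.8 and 12.7%. More peaks in the first part than in the last were found in 11 of the 22 genes, against 56.9% of the other genes, and more in the last part in 8, against 26.3%. The difference between both sets was not tested. The genes varied widely among themselves. The median peak lay at 23.3% of the gene in U2af2, 25.3% in Prpf4 and 28.0% in Snrpg, and at 81.4% in Prpf8 and 84.7% in Sf3a3. For U2af2, Snrnp40 and Eftud2 the direction was taken from the strand of their own peaks. The table gives no exons, and introns and exons were not analysed here.

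**Figure D5:**
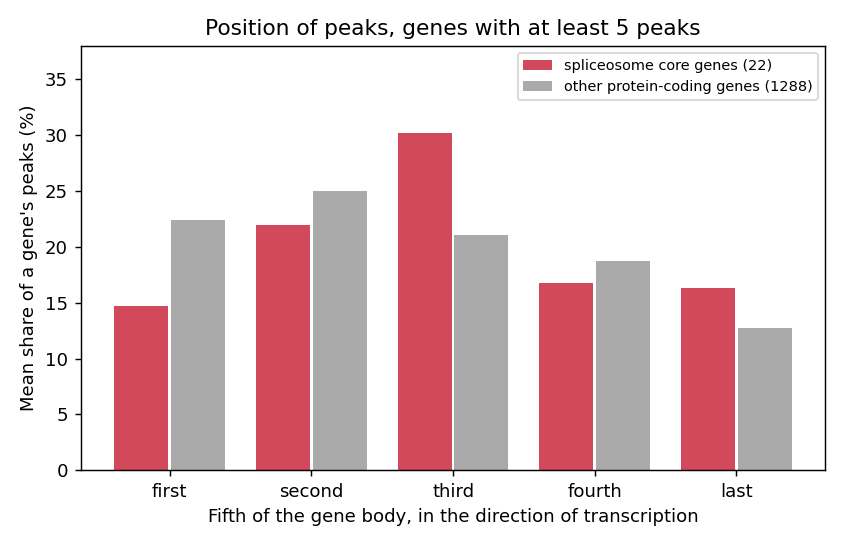
Mean percentage of a gene's DHX9 peaks (vertical axis) in each of 5 equal parts of the gene body, in the direction of transcription (horizontal axis), for 22 spliceosome core genes (red) and 1288 other protein-coding genes (grey) with at least 5 peaks. The red bars are highest in the middle part, at 30.2%, and the grey bars in the second, at 25.0%.

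The peaks in spliceosome genes had a median width of 193 bases (quartiles 151 and 273), against 197 (147 and 268) for 54857 peaks in other protein-coding genes. The median gap between neighbouring peaks of a gene was 220 bases in both sets, and 83.5% of gaps were at most 1000 bases, against 81.8%. In 16 of the 22 genes with at least 5 peaks, the largest run held at least 50% of the peaks, and in 4 (U2af1, Sf1, Snrpg and Sf3b6) all peaks formed 1 run. Runs were not counted in other genes, so such clustering cannot be called particular to the spliceosome genes. In these 22 genes, peaks covered between 5.04% (Prpf6) and 53.4% (U2af1) of the gene body. Coverage was lower in some genes with fewer peaks, down to 0.27% in Aqr.

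There were 7 small RNA genes inside 5 of the spliceosome genes, and peaks overlapped 2 of them, both in Sf3b3. Sf3b3 held the most peaks, which covered 25.7% of its gene body. The share of all small RNA genes under a peak was not counted, so 2 of 7 cannot be called high or low. The C/D box snoRNA gene Snord111 (chromosome 8, 110838535 to 110838598), which lies 8.21 kb after the start of Sf3b3, was wholly inside a peak of 222 bases. The annotated snoRNA gene LOC115485679 (chromosome 8, 110842383 to 110842458) was wholly inside a peak of 114 bases, with the midpoint of the peak within it. The snoRNA genes Gm25970 in Prpf39 and Gm22027 in Sf3b4 lay 4533 and 381 bases from the nearest peak of their hosts. Mir697 in Sf3a3 lay 266 bases from one, and Mir7002 and the tRNA gene n-TDgtc2 in Aqr were farther than 3 kb away.

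Other genes of the splicing pathway, in 8 further lists with 74 genes, held a peak in 46 cases (62.2%, interval 50.8 to 72.4%, against 22.8% of all protein-coding genes and 24.6% in their length bins). All 7 genes for U1-associated proteins had peaks, against 32.5% in their length bins, led by the LUC7-like genes Luc7l2 (50), Luc7l (34) and Luc7l3 (32). Of 10 other U2 and branch site genes 8 had peaks, against 27.4% in their length bins, with 42 in the helicase gene Ddx46, 39 in U2surp and 19 in Ddx39b, and none in Htatsf1 and Puf60. Of 12 other tri-snRNP and B complex genes 9 had peaks, against 22.8% in their length bins, with Ppih at 26, Txnl4a at 18 (10 of them in no other gene) and Smu1 at 10, and none in Sart1, Snu13 and Mfap1a.

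Of 12 other Prp19 and intron-binding complex genes 3 (25%) had a peak, Ppil1 with 6, Bcas2 with 5 and Isy1 with 3, against 22.7% in their length bins. Ctnnbl1, Cwc15, Crnkl1, Xab2, Syf2, Ppie, Bud31, Rbm22 and Snw1 had none. Of 8 genes for helicases and factors of catalysis and disassembly 3 had peaks, Dhx15 with 10 and Dhx16 and Dhx8 with 4 each, against 29.7% in their length bins, while Dhx38, Slu7, Cdc40, Dhx35 and Tfip11 had none.

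For the assembly of snRNPs, where the SMN complex loads Sm proteins onto snRNA, 10 of 13 genes had peaks, against 26.4% in their length bins. Gemin5, the subunit that recognises snRNA, held 24 (15 of them in no other gene), Clns1a 18 and Strap 14, and Gemin4, Gemin8 and Tgs1 held none. The LSm genes, whose products form the ring on U6 snRNA and on decaying mRNA, had peaks in 3 of 8 cases, against 14.1% in their length bins, with 13 in Lsm1, 10 in Lsm4 and 5 in Lsm2, and none in Lsm3, Lsm5, Lsm6, Lsm7 and Lsm8. Of the 4 exon junction complex genes 3 had peaks, against 19.9% in their length bins, and Casc3 held 22 peaks, Eif4a3 3, Rbm8a 1 and Magoh none.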

How the data were processed

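The authors deposited 1 peak list for the 4 samples. Per the source column of the file, peaks were called with PEAKachu. Not given in the sources used here were its version, settings and use of the IgG control. The submitters' processing notes name Bowtie2 2.2.6 and the builds hg19 and mm10, of which mm10 was taken for this mouse list. The deposited columns used were the first base, last base and strand of each peak (other values, such as a score, were empty for all 59563 peaks).

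From these, peak midpoints were counted in RefSeq gene bodies of GRCm38.p6, of which 49980 are placed and all 45 genes matched by symbol. Gene strands came from the RefSeq promoter table. Expected shares are means over other protein-coding genes of the same length bin, of 50. Counting was tested on simulated data. Python 3.11.15, pandas 2.3.3, NumPy 2.4.6, SciPy 1.17.1 and Matplotlib 3.10.9 were used.

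All 45 genes are named. Coordinates are given for genes with at least 10 peaks, where the rule of 12 genes met a tie, and for the 5 of highest density among those with at least 5 peaks. Elsewhere up to 3 genes per list with the most peaks and those with none are named. The genes, lists and comparisons were chosen with earlier results of these data known.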

Additional observations from a re-analysis of the deposited data

How the results depend on the processing

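When narrower peaks than the median were left out, 57.8% of the spliceosome genes had a peak, against 17.1% of all protein-coding genes, and they held 172 peaks, at 0.20 per kb. With at least 3 peaks required, the share was 51.1%, against 14.8%. Set against the 100 genes of nearest length, the expected share was 25.0% in place of 23.7%. When the peak midpoint had to lie inside the small RNA gene, 1 in place of 2 was counted. Merging peaks within 50 bases left 297 peaks and the same 33 genes. Without the genes on chromosomes 8 and 11, 72.5% had a peak, with 264 peaks at 0.35 per kb, where all 45 genes had 348 at 0.40 per kb. Leaving out peaks shared with another gene gave 71.1% and 344 peaks. Any overlap, or only the strand with most peaks, gave the reported values. The SF1 and U2AF genes had the highest and the Prp19 genes the lowest peaks per kb in all 7 settings, which include the main one. Only merging (1.01 per kb for SF1 and U2AF) and the width limit (0.59, and 0.020 for Prp19) changed these values. The other settings left both values as in the main count, so they are no separate check of this order. No paired analysis was possible because the list holds no value per replicate, and no replicate could be left out for the same reason. The unknown depth limits what the absence of a peak shows.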
